A study of Homo sapiens and Homo sapiens
Mus with 12 samples.

Results

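UM-UC-3, a cell line from an advanced bladder cancer (BC), formed the tumors described here, and the human genes of tumors from the hairpin sh#2 were compared with those of control tumors. The members are the 5 sh#2 and the 5 shCtrl xenograft tumors, 10 of the 24 libraries of the series, and the protein-coding genes of their human count table. Of 14947 protein-coding genes listed, 14515 had a count in the 10 tumors and 8625 passed the low-count filter. The cells carried lentiviral GIPZ hairpins with a GFP marker and were sorted for GFP, so each group is 1 sorted line: shCtrl with a control hairpin, sh#1 and sh#2 with 2 hairpins against CDH11. All 3 lines were mixed with Matrigel and placed under the skin of male BALB/cAJcl-nu/nu mice 5 weeks old, and tumors were taken 4 weeks after transplantation. Nude mice lack mature T cells but keep other immune cells and a stroma of their own, and mouse genes of the same tumors were counted in a separate table. The 5 sh#1 tumors and 9 libraries of the same lines in culture, 3 in each group, serve as comparisons. A deposited sheet of barcoded libraries places each group of tumors in 1 library mix of its own, so that mix and hairpin cannot be told apart in any comparison of tumors.

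CDH11 (OB-cadherin, cadherin-11) is a classical cadherin of mesenchymal cells. Cadherins bind their like on neighbouring cells through calcium-dependent extracellular repeats, and their tails hold catenins that link the membrane to the actin cytoskeleton. The protein is known from osteoblasts, fibroblasts and carcinoma cells with mesenchymal features. The study asked what its loss changes in bladder cancer cells, in culture and in the tumors they form.

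Human gene totals were 635024 to 1248977 counts in the shCtrl tumors and 560630 to 1053107 in the sh#2 tumors, and 11508 to 12336 protein-coding human genes had a count in each of these 10 tumors. Levels are given as CPM, the usual scaling of counts to a common library total, here of the human table, after normalization with trimmed mean of M values (TMM). They are not corrected for gene length, so they compare tumors and not genes. In bulk tumors a lower level can come from fewer cells of a type or from less RNA per cell, which cannot be told apart. Mouse genes took 12.2% ± 1.62 of the human and mouse counts in shCtrl and 15.4% ± 2.51 in sh#2 tumors (SD, n = 5 each; exact permutation p = 0.0476, two-sided). Without the mouse gene with the most counts, CT010467.1, the shares were 8.06% ± 1.16 and 10.1% ± 2.9 (exact permutation p = 0.23). The permutation p also rose, to between 0.0635 and 0.111, without shCtrl 1, shCtrl 3, shCtrl 4, shCtrl 5, sh#2 2, sh#2 3 or sh#2 5. Marker sums of 10 host cell types, from fibroblasts to red cells, gave adjusted exact permutation p-values of 0.839 to 0.96 between the groups. The defining genes of normal urothelium were at 6.41 to 17.2 CPM in sum in the human table, with 4 of 10 markers not listed there. Human-table sums of fibroblast markers were 30.1 to 83.5 CPM in shCtrl and 38.2 to 172 CPM in sh#2 tumors, with PDGFRB at 0 in all 10, and those of endothelial markers were 59 to 72.4 and 63.7 to 70.3 CPM. The part of host reads in the results below was tested only through the covariate fit given for the counts of genes.

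CDH11 (ENSG00000140937; hg38 chromosome 16, 64943753 to 65126112, minus strand), which both hairpins target, had few counts in these tumors. The shCtrl tumors had 21, 12, 15, 32 and 5 counts, and the sh#2 tumors had 7, 14, 12, 6 and 2. These correspond to 16.9, 13, 17.1, 28.5 and 7.66 CPM against 9.95, 18.8, 11.5, 6.4 and 3.82 CPM. The groups overlapped, since sh#2 tumor 2 stood above 4 of the 5 shCtrl tumors. The log2 fold change was -0.73 ± 0.35 (SE) with an adjusted p-value (q value) of 0.347 in edgeR's quasi-likelihood test, over the study's tumor threshold of 0.1. In sh#1 tumors, which share these controls, it was -1.67 with q = 0.026, and the difference between the hairpins had q = 0.482. A lower level of the target was therefore not established for sh#2 tumors at this depth. Cdh11 in the mouse table had 30, 23, 12, 27 and 9 counts in the shCtrl and 17, 30, 28, 10 and 7 counts in the sh#2 tumors, where the order of the tumors was that of human CDH11. Whether reads were assigned across species was not tested. In culture CDH11 had 2, 4 and 4 counts in shCtrl and 1, 2 and 0 in sh#2 cells, below the filter. For its knockdown cells, made with either hairpin, the study reported significantly less CDH11 mRNA and protein than in shCtrl cells. Those measurements were separate from these counts.

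Across the genome the sh#2 tumors differed from shCtrl tumors in a small set of genes. At q under 0.1 in a fit of all 15 tumors, 107 of the 8625 protein-coding genes (1.24%) were higher and 85 (0.986%) lower in sh#2 tumors. At an unadjusted p under 0.05 there were 603 and 541. The shares at q under 0.1 are the background for the counts of calls in each gene list below. The higher genes moved by 0.36 to 1.53 on the log2 scale (median 0.61) and 12 of them by more than 1. The lower genes moved by -3.92 to -0.32 (median -0.59), 18 of them by more than 1. All 5 sh#2 tumors lay beyond all 5 shCtrl tumors for 50 of the higher and 42 of the lower genes, and for 222 of all 8625 tested genes. The median log2 fold change over all 8625 genes was 0.0054. The counts of calls moved when 1 tumor was left out, which also leaves fewer tumors in its group. They rose to 239 and 243 without shCtrl tumor 5. They were 59 and 46 without shCtrl 1, 51 and 46 without shCtrl 4, 52 and 43 without sh#2 1, and 47 and 36 without sh#2 2. In addition 56 genes were lower without shCtrl 2 and 66 higher without sh#2 3. When each tumor's mouse counts relative to its human counts entered as a covariate, 59 genes were higher, and 53 of the 107 higher and 44 of the 85 lower genes kept their call. All of the 192 called genes kept their direction under every alternative in which they were tested.

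**Figure D1:**
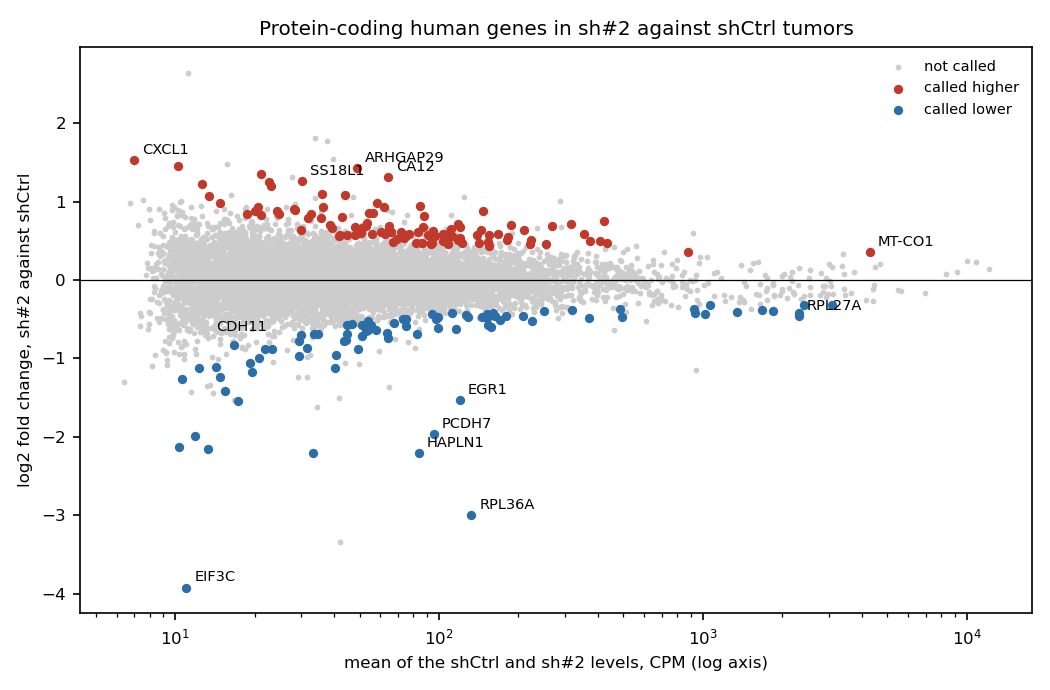
Log2 fold change of each protein-coding human gene in sh#2 against shCtrl tumors (y axis) by its mean level in CPM on a log axis (x axis), with called genes in color. The 107 higher genes stay within 1.53 of 0, and the lower genes reach -3.92 at EIF3C and -3.0 at RPL36A.

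The 12 largest rises came from genes of different roles, and 3 of the 12 encode transcription regulators whose groups did not overlap. NFE2L3, a basic leucine zipper transcription factor of the NRF2 family, had 25.7, 18.4, 20.5, 26.7 and 21.4 CPM in the shCtrl tumors and 61.1, 55.1, 46.9, 38.4 and 45.8 CPM in the sh#2 tumors. Every sh#2 tumor was above every shCtrl tumor, and the log2 fold change was 1.10 ± 0.19 (SE, q = 0.000299). GLIS3, a zinc finger transcription factor, had 30.5, 32.5, 26.2, 19.6 and 33.7 CPM in shCtrl and 56.9, 39, 58.4, 81.1 and 63 CPM in sh#2 tumors. Its groups did not overlap either (1.09 ± 0.20, q = 0.000939). MLLT3, a chromatin reader that works with the transcription elongation machinery, had 28.1, 40, 49, 24.9 and 56.7 CPM against 92.4, 80.6, 70.9, 57.6 and 84 CPM. Again the lowest sh#2 tumor was above the highest control (0.99 ± 0.19, q = 0.00179).

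SS18L1, a subunit of the BAF chromatin remodeling complex of neurons, had 12.8, 20.6, 17.1, 24 and 10.7 CPM in shCtrl and 34.1, 56.4, 37.4, 23.5 and 64.9 CPM in sh#2 tumors. The groups met only at sh#2 tumor 4 (1.26 ± 0.25, q = 0.00297). ARHGAP29 (chromosome 1, 94148988 to 94275068), which switches off small GTPases of the actin cytoskeleton, had the largest of the 12 rises. It had 36.9, 21.6, 25.1, 23.1 and 26 CPM in shCtrl and 121, 48.4, 69.9, 86.4 and 30.6 CPM in sh#2 tumors. It was lowest in sh#2 tumor 5, which fell below shCtrl tumor 1 (1.43 ± 0.30, q = 0.0251). RAB3B, a small GTPase of regulated secretion, had 48.1, 32.5, 37.6, 44.5 and 49 CPM against 129, 65.8, 58.4, 93.9 and 57.3 CPM, with no overlap (0.93 ± 0.20, q = 0.00745). CDK14, a cyclin-dependent kinase, had 16.9 to 25.1 CPM in shCtrl and 21 to 45.7 CPM in sh#2 tumors (0.89 ± 0.21, q = 0.0173).

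The other genes of largest rise were less firm. CLGN, a chaperone of the endoplasmic reticulum, rose by 1.21 on the log2 scale (q = 0.0303). The call ended without shCtrl 4 (q = 0.109) or sh#2 3 (q = 0.126), and with tumor number as a replicate block (q = 0.104). FNBP1L, which bends membranes where actin assembles, rose by 0.93 (q = 0.0395), with the call lost without shCtrl 4 (q = 0.127), sh#2 2 (q = 0.132) or sh#2 3 (q = 0.167) or with the covariate for mouse counts (q = 0.133). GOLGA1, a golgin of the trans-Golgi, rose by 0.91 (q = 0.0395) and was not called without sh#2 1 (q = 0.116) or sh#2 4 (q = 0.208). ADAM19, a membrane metalloprotease, had q = 0.0997 at 0.94, and its call was lost in 10 of the 15 fits that leave out a tumor, with q up to 0.241 without shCtrl 4, and with the covariate for mouse counts (q = 0.217).

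**Figure D2:**
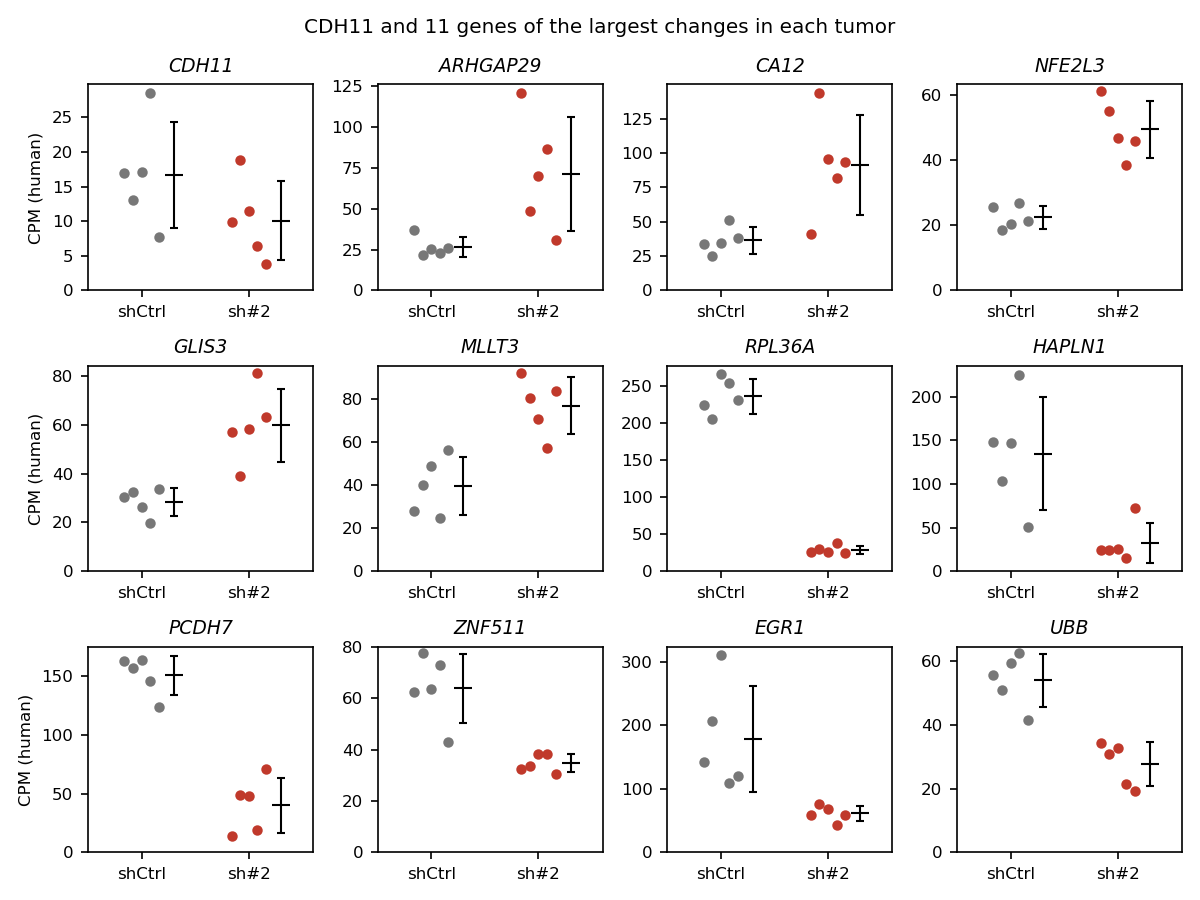
Level in CPM (y axis, from 0) of CDH11 and of 11 genes of the largest rises and falls in each shCtrl (gray) and sh#2 (red) tumor, with the mean and SD of 5 tumors beside the points. CDH11 overlaps between the groups, NFE2L3, GLIS3 and MLLT3 are higher in all sh#2 tumors, and RPL36A lies at 206 to 266 CPM in shCtrl and 24.8 to 38.4 CPM in sh#2 tumors.

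The lower genes are given from the cell surface inwards. PCDH7 (chromosome 4, 30720369 to 31146805), a protocadherin of the same superfamily as CDH11, had 163, 157, 164, 146 and 124 CPM in the shCtrl tumors and 14.2, 48.4, 47.9, 19.2 and 70.7 CPM in the sh#2 tumors. All sh#2 tumors lay below all controls (-1.97 ± 0.40, q = 0.0303). HAPLN1, which ties hyaluronan to proteoglycans in the matrix, had 148, 104, 147, 225 and 50.6 CPM in shCtrl and 24.2, 24.2, 25.9, 14.9 and 72.6 CPM in sh#2 tumors. It was low in 4 sh#2 tumors and within the control range in sh#2 tumor 5 (-2.21 ± 0.46, q = 0.0358), with q = 0.104 without sh#2 2 and 0.105 with the covariate for mouse counts. NCAM2, an immunoglobulin-type adhesion molecule, fell by 0.97 on the log2 scale (q = 0.0515) from 31.1 to 46 CPM in shCtrl to 11.4 to 36.3 CPM in sh#2 tumors, and its call was lost without shCtrl 1 or shCtrl 2 (q = 0.104 each), sh#2 1 (0.165), sh#2 3 (0.158) or sh#2 4 (0.119).

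EGR1, an immediate early transcription factor and the 1 lower of 17 genes of the AP-1 and immediate early list (none higher), had 143, 207, 311, 109 and 121 CPM in shCtrl and 58.3, 76.6, 69, 43.8 and 59.2 CPM in sh#2 tumors. The control tumors varied widely but all were above the sh#2 tumors (-1.53 ± 0.40, q = 0.088), and the call was lost in 10 of the 15 fits without a tumor, with q up to 0.184 without sh#2 1, and with offsets for transcript length (q = 0.112). NR2F1, an orphan nuclear receptor, fell by 1.12 (q = 0.0416), with q of 0.115 to 0.127 without shCtrl 4, sh#2 1, sh#2 2 or sh#2 3.

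RPL36A (chromosome X, 101390824 to 101396155), a protein of the large ribosomal subunit, was the clearest difference of all. Control tumors had 225, 206, 266, 254 and 231 CPM and sh#2 tumors had 25.6, 30.9, 25.9, 38.4 and 24.8 CPM. The log2 fold change was -3.0 ± 0.15 (q = 1.89e-17), and in sh#1 tumors it was -2.56. In cultured sh#2 cells RPL36A was instead higher, by 0.61 (q = 5.45e-14). EIF3C, a subunit of the translation initiation factor eIF3, had 32, 17, 26, 22 and 7 counts in shCtrl and 1, 2, 0, 2 and 0 counts in sh#2 tumors (q = 3.72e-07). A count of 0 allows up to 2.87 CPM in sh#2 tumor 3 and 5.73 CPM in sh#2 tumor 5, for counting error only. UBB, which encodes polyubiquitin, had 41.4 to 62.3 CPM in shCtrl and 19.1 to 34.1 CPM in sh#2 tumors (-0.96 ± 0.19, q = 0.00323). RPL36A, EIF3C and UBB have near-identical copies or processed pseudogenes in the genome, and how the authors' counting shared reads among copies is not given in the sources used here, so these values are uncertain.

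The remaining lower genes of the rule serve housekeeping roles. POP5, a protein of the RNase P and RNase MRP enzymes that trim tRNA and ribosomal RNA precursors, had 23.9 to 41.1 CPM in shCtrl and 11.5 to 20.3 CPM in sh#2 tumors (-0.88 ± 0.22, q = 0.0303; q = 0.101 without shCtrl 2). ZNF511, a zinc finger protein, had 42.9 to 77.9 CPM against 30.6 to 38.4 CPM (-0.88 ± 0.18, q = 0.00455). TMEM129, a ubiquitin ligase of the endoplasmic reticulum, had 32.1 to 49 CPM against 18.5 to 26.7 CPM (-0.87 ± 0.20, q = 0.0133). The groups of these 3 genes did not overlap. MACROD1, a mitochondrial enzyme that removes ADP-ribose, fell by 0.88 (q = 0.0645), and the call was lost without shCtrl 2 (q = 0.142), shCtrl 4 (0.198), sh#2 1 (0.165), sh#2 2 (0.157) or sh#2 4 (0.136), in DESeq2 (0.101) and with length offsets (0.128). Of the 49 named genes that were called, 16 kept the call under every alternative in which they were tested, 8 of them higher and 8 lower. CDK14, SS18L1, EIF3C and ZNF511 were too low for the fit with at least 10 counts in every tumor. The higher ones were ARHGAP29, CA12, CDK14, GLIS3, MLLT3, NFE2L3, RAB3B and SS18L1, and the lower ones were EIF3C, PCDH7, RPL27A, RPL36A, RPS28, TMEM129, UBB and ZNF511.

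Transcript length differed between the higher and the lower genes, with some of each at all lengths but the shortest. Values with length offsets stand below beside each gene list whose count of calls they changed. Length here is that of the canonical transcript of the annotation, and which transcripts these tumors made was not tested. The median was 6535 nt over the 107 higher genes, 1446 nt over the 85 lower genes and 3554 nt over all tested genes. No higher gene was shorter than 1000 nt while 30 lower genes were, beside 486 of the 8622 tested genes with a length. In 5 bins of near-equal size by length, from the shortest to the longest genes, the median log2 fold change was -0.0975, -0.0481, 0.0227, 0.0473 and 0.11. The bin of shortest genes held 45 lower and 3 higher genes, and the longest held 10 lower and 60 higher ones. The medians were -0.0511 to 0.0577 from shortest to longest in sh#1 tumors, and ran the other way in sh#2 cultured cells, from 0.0765 to -0.0979.

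Within each tumor, the mean log2 level of the bin of shortest genes minus that of the longest was 0.626, 0.512, 0.533, 0.737 and 0.117 in shCtrl and 0.194, 0.284, 0.351, 0.401 and 0.339 in sh#2 tumors. Thus 4 control tumors were above all sh#2 tumors and shCtrl tumor 5 was below them all, and the difference of the means did not pass the test (0.505 ± 0.235 against 0.314 ± 0.0789, SD, n = 5 each; exact permutation p = 0.127, two-sided). This rested on shCtrl 5: without it the sh#2 mean minus the shCtrl mean was -0.288 and the exact permutation p was 0.00794, the smallest that these tumors can give, while without any other of the 10 tumors the p was 0.135 to 0.254. With offsets that take out the trend with length in each tumor, an alternative added after the data were seen, 59 genes were higher, and 51 of the 107 higher and 42 of the 85 lower genes kept their call.

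**Figure D3:**
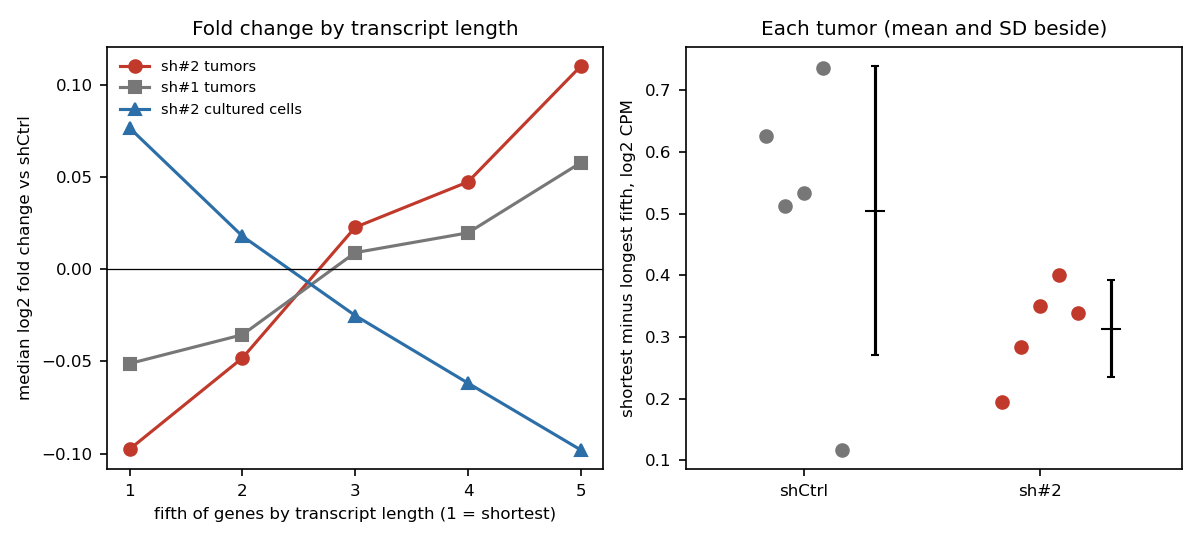
Left, median log2 fold change against shCtrl (y axis) in 5 bins of genes by transcript length (x axis), for sh#2 and sh#1 tumors and sh#2 cultured cells. Right, log2 CPM of the shortest minus the longest bin in each tumor with mean and SD of 5, where shCtrl tumor 5 at 0.117 lies apart from the other control tumors at 0.512 to 0.737.

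Ribosomal protein genes, the list with the most tested genes, held the largest number of calls of any gene list. Their products build the cytosolic ribosome and are made in large and matched amounts. Of 78 tested genes, 12 (RPL36A among them) were lower and none higher in sh#2 tumors, beside 0.986% lower over all tested genes. Negative values were seen for 69, beside 4239 of all 8625 genes. The median was -0.175. Calls were a larger share of the tested integrins (2 of 11) and receptor tyrosine kinases (2 of 12), all of them higher. RPL27A had 2930, 2780, 2870, 2750 and 2030 CPM in shCtrl and 1940, 1830, 2010, 1630 and 2330 CPM in sh#2 tumors (-0.46 ± 0.11, q = 0.0193). The groups crossed only through shCtrl tumor 5 and sh#2 tumor 5. RPS28 had 1130, 912, 1170, 1090 and 1080 CPM against 842, 699, 788, 874 and 806 CPM (-0.42 ± 0.10, q = 0.015). RPS29 had 1240, 997, 1280, 1220 and 1100 CPM against 857, 742, 821, 958 and 968 CPM (-0.43 ± 0.10, q = 0.0152).

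RPS28 and RPS29 did not overlap between the groups. With length offsets RPS29 was not called (q = 0.27), while RPS28 kept its call. The offsets used annotated lengths of 295 nt for RPS29, 1330 nt for RPS28 and 4535 nt for RPL27A. Calls of RPS28 and RPL27A kept under these offsets therefore depend on those lengths, which were not tested. The other called members were RPLP2, RPS3, RPS13, RPS15A, RPS20, RPS21, RPS25 and RPS27, with -0.48 to -0.32 on the log2 scale. The number called lower was 24 without shCtrl 5, 7 without shCtrl 1, shCtrl 3 or sh#2 1, 6 without shCtrl 4 or sh#2 2, 18 in DESeq2 and 5 with length offsets, where the median was -0.0585. In cultured sh#2 cells, where 19.5% of all tested genes were called higher and 18.8% lower, all 78 were called higher, with a median of 0.525. In sh#1 tumors, where 54 protein-coding genes (0.626%) were called higher and 40 (0.464%) lower, the median was 0.0324 with 1 gene called each way.

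Genes of oxidative phosphorylation that are encoded in the nucleus were mostly below the control mean, by small amounts. Complex I takes electrons from NADH, and complexes II to V pass them on to oxygen and make ATP. Of 34 nuclear complex I genes 31 had a negative value (median -0.239), 2 were called lower and none higher. NDUFA3, an accessory subunit, had 84.3, 77.9, 83.2, 73.8 and 84.3 CPM in shCtrl and 44.1, 45.7, 55.5, 74.7 and 51.6 CPM in sh#2 tumors. Only sh#2 tumor 4 reached the control range (-0.55 ± 0.15, q = 0.0594). NDUFB9 fell by 0.36 (q = 0.0933), with shCtrl tumor 5 at 406 CPM and the other controls at 559 to 601 CPM.

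Of 42 genes of complexes II to V, 39 had a negative value (median -0.189) and 5 were called lower, none higher. ATP5MF, ATP5ME, ATP5MG and ATP5MPL (also ATP5MJ) are small subunits of the ATP synthase membrane part, and COX8A is a subunit of cytochrome c oxidase. ATP5MPL had 207, 185, 189, 238 and 185 CPM in shCtrl and 151, 116, 137, 175 and 128 CPM in sh#2 tumors, without overlap (-0.51 ± 0.12, q = 0.0251). ATP5MF had 278, 283, 299, 296 and 170 CPM against 168, 184, 208, 191 and 176 CPM (-0.52 ± 0.13, q = 0.035), so that shCtrl tumor 5 alone stood among the sh#2 tumors. COX8A fell by 0.47 (q = 0.0501), ATP5ME by 0.57 (q = 0.0824) and ATP5MG by 0.38 (q = 0.0879).

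These genes are short, with a median length of 684 nt in complex I and 1060 nt in complexes II to V. With length offsets no complex I gene and 1 gene of complexes II to V were called lower, and the medians were -0.0933 and -0.115. Without shCtrl 5 the calls were 8 and 15. Without sh#2 2 they were 0 and 1, as they were without sh#2 1, without shCtrl 1 they were 0 and 2, without shCtrl 4 they were 1 and 2, and without shCtrl 3 or sh#2 3 no complex I gene was called. The covariate for mouse counts left 0 and 2. In cultured sh#2 cells 9 complex I genes were called higher and 7 lower, with a median of 0.0587. Of the genes of complexes II to V, 20 were called higher and 6 lower there, with a median of 0.15. Over all genes tested in culture, 19.5% were called higher and 18.8% lower.

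The 13 protein genes of the mitochondrial DNA, which encode core subunits of complexes I, III, IV and V, stood on the other side. Of these, 11 had a positive value (median 0.171) and 1 was called higher. MT-CO1, the catalytic subunit of cytochrome c oxidase, had 3740, 4010, 4030, 3700 and 3320 CPM in shCtrl and 4440, 5560, 4220, 4050 and 5830 CPM in sh#2 tumors. All sh#2 tumors were above the controls (0.36 ± 0.10, q = 0.0515), and the call was lost without shCtrl 1 (q = 0.136), shCtrl 4 (0.134), sh#2 2 (0.184) or sh#2 5 (0.178), or with the covariate for mouse counts (0.123). With length offsets 2 of the 13 were called higher and the median was 0.319. MT-ND1 and MT-ND3 had values of -0.23 (q = 0.446) and -0.02 (q = 0.971).

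Other mitochondrial lists had few calls. Of 25 import genes none was called, with a median of -0.184. Of 51 mitochondrial ribosome genes, MRPL41 was lower (-0.42, q = 0.0591) and the median was -0.135. MRPL41 was not called without shCtrl 2 (q = 0.157), shCtrl 4 (0.125), sh#2 1 (0.16) or sh#2 2 (0.184) or with length offsets (0.308), where the list median was -0.0486, and 5 genes of the list were lower without shCtrl 5. None of 18 citric acid cycle genes was called (median -0.134), and the value of MDH2 was -0.28 (q = 0.347). The genes that the study followed for mitochondrial and WNT function were not called in sh#2 tumors. NDUFC2, of complex I, had 77.8, 77.9, 69.5, 99.6 and 58.2 CPM in shCtrl and 59.7, 72.5, 70.9, 53.4 and 61.1 CPM in sh#2 tumors (-0.29 ± 0.16, q = 0.444). TIMM21, of the inner membrane import machinery, had 16.9 to 31.3 CPM against 21.3 to 36.4 CPM (0.26 ± 0.22, q = 0.653). WNT7B, a WNT ligand, had 35.2 to 61.4 CPM against 23.5 to 42 CPM (-0.58 ± 0.19, q = 0.126). All 3 groups of values overlapped. In cultured sh#2 cells the same 3 genes were lower by 1.6 (q = 3.12e-19), 1.44 (q = 5.75e-06) and 1.66 (q = 9.85e-11) on the log2 scale.

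**Figure D4:**
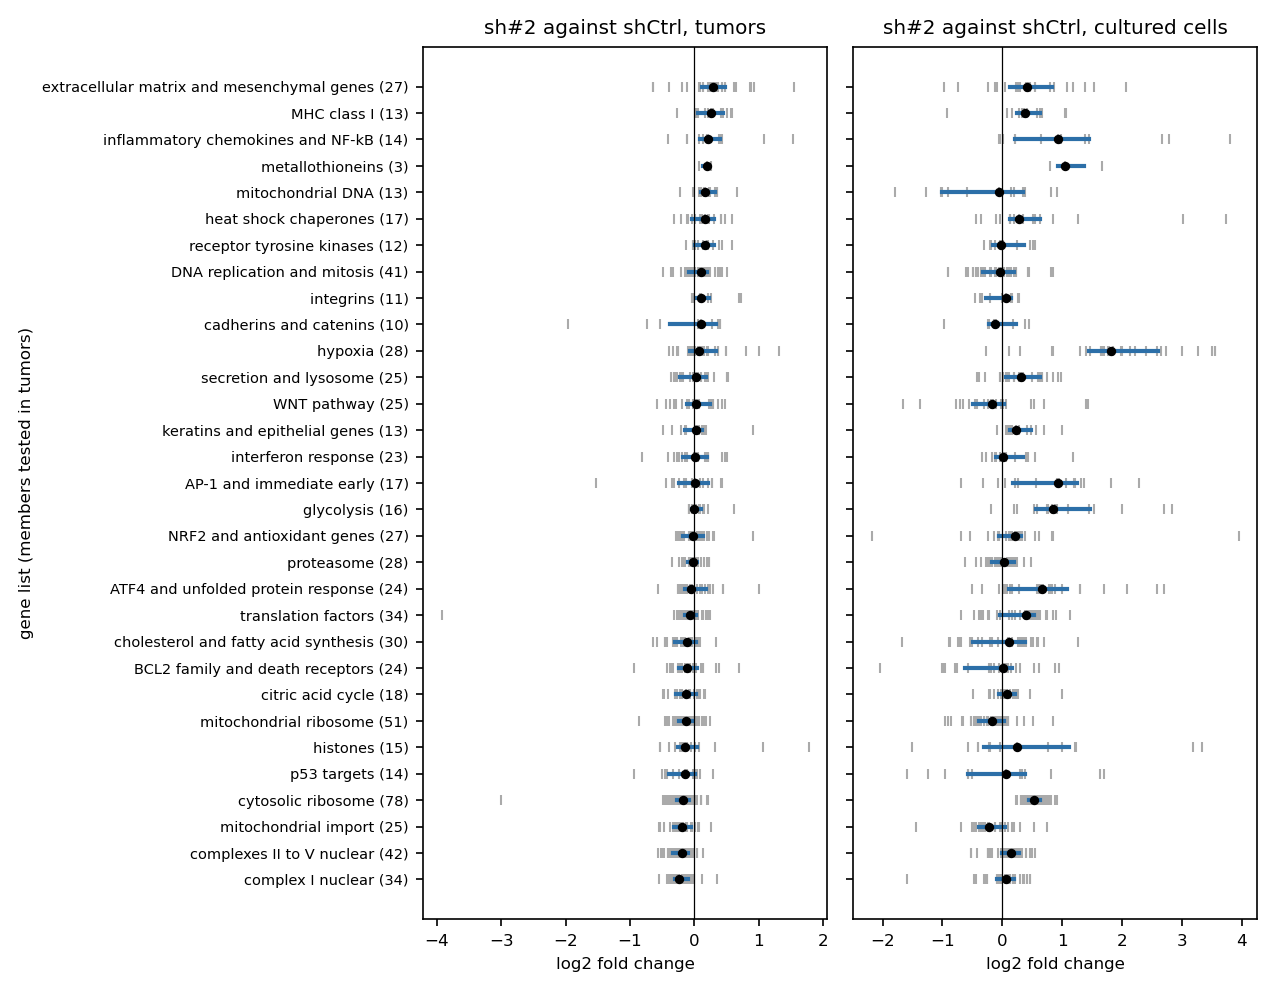
Log2 fold change of each tested member (gray ticks), the range between their quartiles (blue lines) and their median (black points) for gene lists with at least 3 tested members, in sh#2 tumors (left) and in sh#2 cultured cells (right), each against shCtrl. In tumors the medians lie between -0.239 and 0.288, and in cultured cells the hypoxia list reaches 1.81.

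Hypoxia genes, which cells turn on through HIF factors when oxygen is short, held 1 call in tumors. Of 28 tested genes 1 was higher and none lower, with a median of 0.08. This median rested on single tumors and settings: it was 0.319 without shCtrl 3, whose mean log2 level over the list was 6.407 beside 5.504 to 5.81 in the other controls, and -0.207 with the covariate for mouse counts. The called gene was CA12 (chromosome 15, 63321378 to 63381846), a carbonic anhydrase of the cell surface that helps cells shed acid. It had 33.7, 24.9, 34.2, 51.6 and 38.3 CPM in shCtrl and 41.2, 144, 95.8, 82.2 and 93.6 CPM in sh#2 tumors. Only sh#2 tumor 1 lay in the control range (1.31 ± 0.26, q = 0.0114). CA12 was also higher in sh#1 tumors (1.02, q = 0.0877) and in cultured sh#2 cells (0.85, q = 5.87e-18). The median of the list was 0.58 in sh#1 tumors, with 1 gene called. There sh#1 tumor 1, with the fewest human counts (414849) and a mouse share of 30%, had a mean log2 level of 7.328 beside 5.898 to 6.475 in the others, and the mean level of sh#1 minus that of shCtrl tumors was 0.599 with it and 0.359 without it. The median was 1.81 in cultured sh#2 cells, where 26 of 28 genes were called higher. None of 16 glycolysis genes was called in tumors (median -0.01, and 0.148 without shCtrl 3), while 14 were called higher in culture.

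Adhesion and growth factor receptors gave a few rises. ITGA6, the laminin-binding integrin chain that pairs with beta 4 in hemidesmosomes, had 33.7, 34.6, 33.1, 56.9 and 42.9 CPM in shCtrl and 78.2, 80.6, 68, 58.7 and 45.8 CPM in sh#2 tumors (0.73 ± 0.18, q = 0.0303). ITGAV, the chain of vitronectin-binding integrins, had 26.5, 31.4, 18.2, 31.1 and 41.4 CPM against 51.2, 40.3, 59.4, 39.5 and 45.8 CPM (0.70 ± 0.20, q = 0.0591). Both overlapped at 1 control tumor. They were the 2 higher of 11 tested genes of the integrin list, none of which was lower. Neither was called without shCtrl 1 (q = 0.116 and 0.163) or sh#2 1 (0.101 and 0.146), ITGA6 was lost without sh#2 2 (0.116), and ITGAV without shCtrl 3 (0.155), shCtrl 4 (0.107) or sh#2 3 (0.211). Neither was called with the covariate for mouse counts (q = 0.127 and 0.117), and ITGAV was not called with length offsets (0.122).

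MET, the receptor of hepatocyte growth factor, had 109 to 153 CPM in shCtrl and 165 to 203 CPM in sh#2 tumors (0.43 ± 0.13, q = 0.0849). EPHB4, a receptor of ephrin B2, had 27.3 to 41.8 CPM against 43.9 to 64 CPM (0.58 ± 0.18, q = 0.0976). Neither gene overlapped between the groups, and both were the higher 2 of 12 receptor tyrosine kinases. Their calls were lost in 8 and 11 of the 15 fits without a tumor, with q up to 0.231 without sh#2 3 for MET and 0.279 without shCtrl 1 for EPHB4. Neither was called with length offsets (q = 0.231 and 0.144) or with the covariate for mouse counts (q = 0.257 and 0.105). In all, the fits that kept every tumor ended the call of MET in 4 cases and that of EPHB4 in 8. For EPHB4 these included DESeq2 (q = 0.165). The median length of the list was 7430 nt. Of 10 cadherin and catenin genes PCDH7 was the 1 lower gene, and CDH2 (0.28, q = 0.895) and the beta-catenin gene CTNNB1 (0.06, q = 0.874) did not pass the test. None of 27 extracellular matrix and mesenchymal genes was called, though 22 had a positive value (median 0.288), and the fibroblast marker sums of the human table, given above, reached higher in sh#2 than in shCtrl tumors. VIM, the intermediate filament of mesenchymal cells, had a value of 0.08 (q = 0.831).

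Lipid and lysosome genes gave small groups of calls. FADS1, a fatty acid desaturase, had 260, 266, 241, 238 and 202 CPM in shCtrl and 179, 153, 148, 220 and 180 CPM in sh#2 tumors (-0.46 ± 0.12, q = 0.0436). IDI1, an enzyme of isoprenoid synthesis, fell by 0.58 (q = 0.0748). They were among the 3 lower of 30 genes of cholesterol and fatty acid synthesis, with none higher and a median of -0.112. No gene of the list was called without shCtrl 1, shCtrl 2, sh#2 2 or sh#2 3, 1 was called without sh#2 1, and 6 were called without shCtrl 5. With length offsets 4 were called, and with the covariate for mouse counts 1. LAMP2, a lysosomal membrane protein, had 72.5 to 100 CPM in shCtrl and 102 to 134 CPM in sh#2 tumors, without overlap (0.50 ± 0.13, q = 0.0397). CTSB, a lysosomal protease, had 248 to 406 CPM against 394 to 623 CPM (0.50 ± 0.14, q = 0.053). Both were the higher 2 of 25 genes of secretion and lysosome, none lower. LAMP2 was not called without shCtrl 2 (q = 0.112), sh#2 2 (0.104) or sh#2 3 (0.112) or with length offsets (0.129), and CTSB without shCtrl 1 (0.129), shCtrl 2 (0.104), sh#2 1 (0.136) or sh#2 3 (0.213).

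Within the gene lists, the remaining calls were 1 gene in each of 3 lists and 2 translation factors. Over all tested genes 1.24% were called higher and 0.986% lower, and a single call was not read as a change of its list. CENPF, a kinetochore protein of dividing cells, was the 1 higher of 41 genes of DNA replication and mitosis (0.50, q = 0.0976; list median 0.105), with 230 to 400 CPM in shCtrl and 304 to 529 CPM in sh#2 tumors. PDIA3, which folds MHC class I chains in the endoplasmic reticulum, was the 1 higher of 13 MHC class I genes (0.58, q = 0.0911), 12 of which had a positive value. CXCL1, a chemokine that draws neutrophils, had 1.53 to 6.23 CPM in shCtrl and 7.11 to 17.1 CPM in sh#2 tumors, the 1 higher of 14 inflammatory genes (1.53 ± 0.44, q = 0.0665). EEF2, the elongation factor that moves the ribosome along mRNA, fell by 0.32 (q = 0.0879), with 1040 to 1280 CPM against 857 to 1010 CPM, and with EIF3C it made 2 lower of 34 translation factors. The calls of CENPF, PDIA3, CXCL1 and EEF2 were lost in 11, 10, 5 and 9 of the 15 fits without a tumor, with q up to 0.245 (without sh#2 2), 0.214 (without shCtrl 4), 0.216 (without sh#2 4) and 0.216 (without sh#2 3). With the covariate for mouse counts their q values were 0.143, 0.197, 0.141 and 0.202. CENPF (0.201) and PDIA3 (0.14) were not called with length offsets either.

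The lists of the proteasome, heat shock chaperones, ATF4 and unfolded protein response, interferon response, NRF2 and antioxidant genes, metallothioneins, histones, BCL2 family, p53 targets, WNT pathway and keratins held no call in either direction. Members of high level in some of these show the spread. HSP90AA1 had 2270 to 3460 CPM in shCtrl and 2770 to 4010 CPM in sh#2 tumors (0.17, q = 0.643), IFITM3 had 246 to 551 CPM against 293 to 447 CPM (-0.19, q = 0.734), and ISG15 had 56.3 to 277 CPM against 81 to 196 CPM (-0.26, q = 0.843). Of 31 markers of bladder cancer subtypes only CD44 was tested (0.21, q = 0.53), the others being below the filter or not listed.

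The hairpins were compared directly by the contrast of sh#2 with sh#1 tumors, 5 each. Here 41 genes (0.475%) were higher and 38 (0.441%) lower in sh#2 tumors. SS18L1 had 43.3 CPM on average in sh#2 and 14.9 CPM in sh#1 tumors (difference 1.48, q = 0.0011), against 17.1 CPM in shCtrl. Other named genes that differed were NFE2L3 (0.69, q = 0.0762), ITGAV (0.80, q = 0.0578), EPHB4 (0.75, q = 0.0511) and CENPF (0.65, q = 0.0473), all higher in sh#2, and POP5 (-1.13, q = 0.00347), TMEM129 (-0.79, q = 0.0679), EIF3C (-2.72, q = 0.00815), NDUFA3 (-0.64, q = 0.0438), ATP5ME (-0.63, q = 0.0863) and RPS29 (-0.51, q = 0.00376), all lower. Of the 78 ribosomal protein genes 12 were lower in sh#2 than in sh#1 tumors and none higher (median -0.199). Of 41 genes of replication and mitosis 2 were higher, with a median of 0.368. GLIS3 (-0.09, q = 0.919), CA12 (0.30, q = 0.74), UBB (-0.11, q = 0.915) and ZNF511 (-0.07, q = 0.952) did not pass the test. Their values against shCtrl, side by side for sh#2 and sh#1, were 1.09 and 1.18, 1.31 and 1.02, -0.96 and -0.85, and -0.88 and -0.81. The counts of 41 and 38 fell to 8 and 15 without sh#2 2, and to between 12 and 20 higher and 17 and 24 lower without sh#2 1, sh#2 3, sh#1 1, sh#1 2 or sh#1 5, and 23 were higher without sh#1 3 or sh#1 4. They were 75 and 69 when only the compared groups entered the fit.

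The same line in culture gave far more calls than the tumors, at the lower threshold of q under 0.05. There 1920 of 9859 genes (19.5%) were higher and 1857 (18.8%) lower in sh#2 than in shCtrl cells (n = 3 each). These cultured libraries had 2292088 to 2434537 counts, beside 560630 to 1248977 human counts in the 10 tumors. The numbers of calls therefore do not compare the size of the effect in the 2 settings. Of the called tumor genes, 106 higher and 79 lower ones were tested in both tables. Of the 106 higher genes 30 (28.3%) were higher in culture and 17 lower. Of the 79 lower genes 16 (20.3%) were lower in culture and 27 higher. Of the genes with a test in tumors and in culture, 1645 were called higher and 1672 lower in culture, of which the 30 and 16 genes are 1.82% and 0.957%. Over all 8351 genes tested in both, 19.7% were called higher and 20% lower in culture. Across these genes the Spearman correlation of the fold changes was 0.047, where genes are not independent replicates.

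Genes that fell in both settings included PCDH7 (-1.97 in tumors, -0.98 in culture), HAPLN1 (-2.21 and -0.68), NR2F1 (-1.12 and -1.44) and TMEM129 (-0.87 and -0.76). Genes that rose in both included GLIS3 (1.09 and 1.27), MLLT3 (0.99 and 1.31) and CA12 (1.31 and 0.85). EGR1 was lower in tumors and higher in culture (-1.53 and 1.37), as were RPL36A and EEF2, while NFE2L3 (1.10 and -0.82), ADAM19 (0.94 and -1.04) and ARHGAP29 (1.43 and -0.45) were higher in tumors and lower in culture. Among the 27 genes lower in tumors and higher in culture were all 12 called ribosomal protein genes. The number of genes shared by direction was 57 and 50 without shCtrl 5, 18 and 10 without shCtrl 1, 15 and 9 without shCtrl 2, 18 and 8 without shCtrl 4, 14 and 7 without sh#2 1, and 12 and 7 without sh#2 2, while 17 were higher without sh#2 3.

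**Figure D5:**
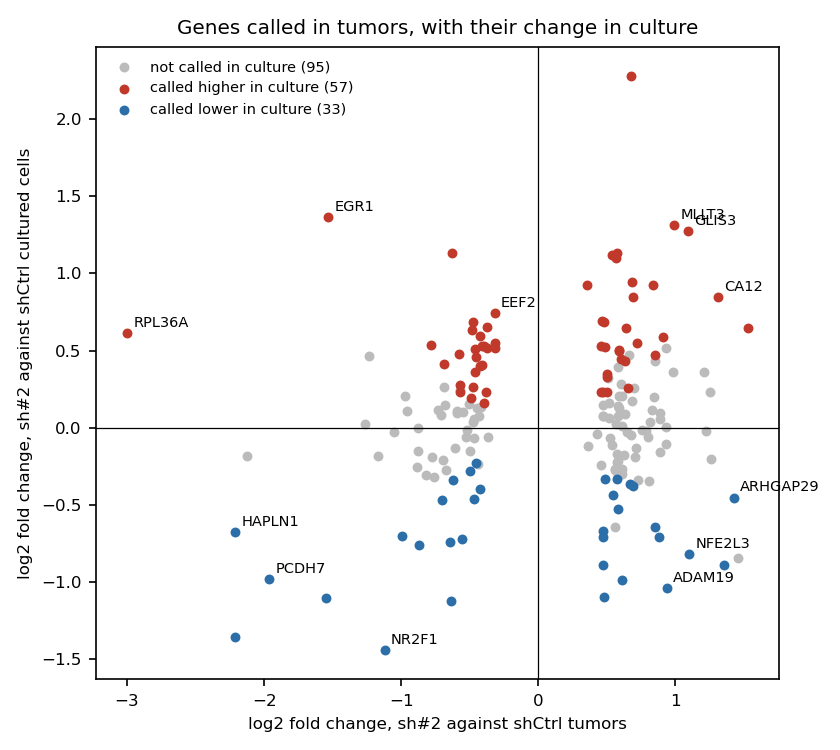
Log2 fold change in sh#2 cultured cells (y axis) against that in sh#2 tumors (x axis) for the protein-coding genes called in tumors and tested in both tables, colored by their call in culture. Of these genes, 57 were called higher, 33 lower and 95 not at all in culture.

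Promoter sequence was read from RefSeq for the called genes, because the lower genes include many ribosomal and mitochondrial genes, whose promoters are known to hold ETS motifs often. Promoters of 250 bases before to 50 bases after the start were matched by symbol for 90 of the 107 higher, 67 of the 85 lower and 7111 of all 8625 tested genes (build GRCh38.p14). The letters CCGGAAG, the ETS core, stood on either strand in 8.89% of the promoters of higher genes, 31.3% of those of lower genes and 22.2% of all. In the 63 matched ribosomal protein genes of the list, called or not, the share was 33.3%. For ACGTG, the core of HIF sites, the shares were 24.4%, 31.3% and 28.4%, and 54.2% in the 24 matched hypoxia genes. For GCATGCG, the NRF1 core, they were 8.89%, 7.46% and 7.24%. A match describes the letters and not a bound site. Windows of 30 bases upstream of the start of 2 lower genes, 5′ to 3′ on the strand of the gene with the ETS core in capitals (chr11:8682715-8682744 and chr11:63974590-63974619, both plus strand), show the motif in either direction. It begins 65 bases before the start in RPL27A and 18 bases before it in COX8A:
RPL27A: cggcctctgtgaCCGGAAGtgaggcgtttt
COX8A: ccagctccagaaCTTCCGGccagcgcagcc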

How the data were processed

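RNA-seq counts of 15 xenograft tumors (5 each of shCtrl, sh#1 and sh#2) and 9 cultured libraries (3 each) were analysed. The authors deposited raw read counts per gene, without normalization. Per the methods of the study, single reads of 75 bp were trimmed with Trim Galore and mapped to hg38 with HISAT2 for the tumors. How human and mouse reads were separated, which tool and annotation counted them, and whether molecular identifiers were used are not given in the sources used here. In the cultured table, 13 genes had no counts and were left out.

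Differences between groups came from edgeR 4.0.16 under R 4.3.3, run on these counts (TMM, filterByExpr, robust quasi-likelihood fit with 3 groups, Benjamini-Hochberg adjustment over all 9184 human genes tested, all biotypes). The q thresholds of the study were used, 0.1 for tumors and 0.05 for cultured cells, without the additional limit on fold change that the study set for cultured cells. Fits were tested on simulated counts with 200 genes changed by 1.5 on the log2 scale. For sh#2 against shCtrl tumors (9060 genes), all 200 were recovered with 6.1% of calls false. For the cultured cells (9726 genes) 99.5% were recovered with 7.87% false. The changed genes were drawn from the better counted ones, and no trend with length or mouse share was simulated. The calls in tumors had smaller median changes (0.61 higher, -0.59 lower), so these rates need not hold for them. Single values were compared by exact permutation of tumors.

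The named genes were the 12 largest rises and 12 largest falls among protein-coding calls with a mean of at least 20 counts and all 5 sh#2 tumors beyond the shCtrl mean in 1 direction, CDH11, NDUFC2, TIMM21, WNT7B, and up to 4 called genes per list (or the 2 of highest level where none was called). Of the genes so chosen, 2 are not reported here. Other genes were named after their values were seen. The comparison, members and gene lists were chosen with earlier results of these data known. Lengths are from GENCODE, promoters from RefSeq. Counts of tumors within a group differed by more than sampling noise (chi-square per degree of freedom of at least 1.77 over 20 pairs). The tumors of a group may share a cell culture, so p-values measure the spread between these tumors. Each tumor was left out in turn, and other fits used DESeq2 1.42.0, upper quartile scaling, no low-count filter or a minimum of 10 counts in every tumor, the compared groups alone, a block for tumor number, a covariate for mouse counts, or protein-coding genes alone. Length offsets, and leaving out tumors for the gap between short and long genes, were chosen after seeing the data.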

Additional observations from a re-analysis of the deposited data

Results flagged for a closer look

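Among 102 groups of 5 tumors examined, 7 had 1 tumor far from the others, where chance gives about 1 in 20. In shCtrl tumor 5 the levels of RPL27A (2030 CPM), ATP5MF (170 CPM) and NDUFB9 (406 CPM) lay far below the other 4 controls. In shCtrl tumor 1 ARHGAP29 (36.9 CPM) and CLGN (26.5 CPM) lay far above them. In sh#2 tumors HAPLN1 in tumor 5 (72.6 CPM) and MACROD1 in tumor 3 (23 CPM) lay above the rest.

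Of 47 named and called genes, 11 differed between the hairpins in the test of sh#2 minus sh#1 tumors. On the log2 scale these were SS18L1 at 1.48, ITGAV at 0.80, EPHB4 at 0.75, NFE2L3 at 0.69 and CENPF at 0.65, and EIF3C at -2.72, POP5 at -1.13, TMEM129 at -0.79, NDUFA3 at -0.64, ATP5ME at -0.63 and RPS29 at -0.51.

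For 17 of the 47, all 5 sh#2 tumors lay on one side of the shCtrl mean and all 3 sh#2 cultures on the other. The difference between tumors and culture was not tested. In culture, where 12 of the 17 were called, the log2 fold changes of genes lower in tumors were 1.37 for EGR1, 0.74 for EEF2, 0.61 for RPL36A, 0.59 for RPS29, 0.51 for FADS1, 0.48 for IDI1, 0.46 for RPL27A, 0.40 for RPS28, 0.28 for ATP5ME, 0.16 for ATP5MPL, 0.11 for UBB and 0.10 for NDUFA3. Those of genes higher in tumors were -1.04 for ADAM19, -0.82 for NFE2L3, -0.45 for ARHGAP29, -0.34 for ITGA6 and -0.30 for EPHB4.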

How the results depend on the processing

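The calls of sh#2 against shCtrl tumors kept their direction in all fits that tested them, but their number moved. It ranged over the fits without 1 tumor from 47 to 239 higher and 36 to 243 lower. Lower genes were 140 with no low-count filter, and higher genes were 59 with the covariate for mouse counts and 59 with length offsets. For sh#2 against sh#1 tumors the range without 1 tumor was 8 to 56 higher and 15 to 54 lower. There were 58 lower genes in DESeq2, 79 lower without the filter, 75 higher and 69 lower with only the compared groups, 22 higher with protein-coding genes only and 24 higher with length offsets. CDH11 was not called in any fit that tested it (it had too few counts for the minimum of 10 in every tumor), from -1.04 to -0.45 without 1 tumor. Genes called in both tumors and culture were 12 to 57 higher and 7 to 50 lower without 1 tumor, with 6 lower in DESeq2 and 27 under upper quartile normalization. The mouse share of counts differed by 3.27 percentage points, by 2.42 to 3.89 without 1 tumor and by 2.04 (exact permutation p = 0.23) without its most counted gene. The cause of these moves was not tested. Tumor numbers did not pair the tumors (correlations of deviations -0.032 to 0.022). With the tumor number as a replicate block the calls were 107 higher and 73 lower. Of the 107 higher and 85 lower genes of the main fit, 95 and 68 kept their call under the block. Calls lost there included HAPLN1 (q = 0.128), CLGN (0.104), CENPF (0.203), EPHB4 (0.104) and EEF2 (0.119).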
